A study of Mus musculus with 2 samples.

Results

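The genes described here are 8 small nucleolar RNA (snoRNA) host genes, namely Gas5, Snhg1, Snhg3, Snhg5, Snhg6, Snhg8, Snhg11 and Snhg12, chosen by name. Of these, 7 were found among the 45578 genes of the deposited table, with 58 annotated isoforms. Snhg1 matched no row by symbol or Ensembl identifier and is not analysed here. Each host was represented by the isoform whose counts had the highest sum across the libraries; where isoforms tied, the longest was taken. The libraries came from whole brain at postnatal day 5 of Taiwanese-line mice of genotype Smn+/-; SMN2tg/0, heterozygous for mouse Smn and carrying human SMN2, on an FVB background; the labels call them control mice. They were made by RiboLace, a pull-down of translating ribosomes on beads after nuclease footprinting, with fragments of 25 to 35 nucleotides selected. The study has 1 group with 2 biological replicates, so the comparisons that the design allows are between genes, between isoforms and between the libraries.

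A host gene is transcribed, its exons are joined, and the excised introns are trimmed to snoRNAs, which guide chemical modification or cleavage of ribosomal RNA in the nucleolus. The spliced exons of many hosts encode no conserved protein. Several such spliced RNAs are exported, engage ribosomes on short reading frames and are removed by nonsense-mediated decay, which makes translation part of how their level is set. Many host genes also start with a terminal oligopyrimidine tract, a pyrimidine run at the first transcribed base that ties translation to growth signals.

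Listed below are the starts of those hosts whose RefSeq start begins with a run of at least 4 pyrimidines. Both starts of Gas5 and that of Snhg5, the most abundant hosts in these libraries, are listed as well. Each line gives 10 bases before and 15 bases from the annotated start on the strand of the gene, and the capitals mark the uninterrupted C and T run that begins at the start base.
Gas5, first start: gcgggcccgcgagctcgacagcccg
Gas5, second start: ccatctcagcCTTTCggagctgtgc
Snhg5: gcggtgaaccgggctcgttctttta
Snhg8: gttcagaagtCTCTTTggctgcgat
Snhg12: ttctcagtccTTTCTCgcttcatcc
These are RefSeq sequences on build GRCm38.p6, at chr1:161034591-161034615 (plus strand), chr1:161035156-161035180 (plus), chr9:88522883-88522907 (minus), chr3:123508322-123508346 (minus) and chr4:132308668-132308692 (plus). A run of at least 4 pyrimidines from the start base was present at 3 of the 8 starts listed for 7 of the members, against 6.86% of the 32851 starts in the RefSeq table. The run was 5 bases at the second Gas5 start and 6 bases at Snhg8 and at Snhg12. It was 3 bases at Snhg1, and 0 at the first Gas5 start, Snhg3, Snhg5 and Snhg11. This is a description of letters in a short window, chosen with the sequences in view. The first transcribed base was not measured, so neither the presence nor the absence of a tract follows from these runs.

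Gene counts summed to 343552 in replicate 1 and 120282 in replicate 2, so 1 count was worth 2.71 and 8.93 CPM (counts scaled to a common library size). The tissue label was met by its markers: 12 of 12 listed genes of neurons, astrocytes and radial glia, and the oligodendrocyte lineage had counts, and the liver genes Alb and Apoa2 had 0. Globin messages of blood were also abundant, with 1056 and 349 counts over 3 genes. Between the libraries 4.14% of the 5436 tested genes differed, most of them short non-coding RNAs. Of that class 165 of 262 tested, or 63%, were called in either direction. Called or not, 257 of the 262 were higher in replicate 2.

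The host genes took few footprints. A footprint here is a counted fragment of the 25 to 35 nucleotides selected. Whether each fragment was protected by a ribosome was not tested. Together the 7 hosts held 42 counts in replicate 1, or 0.0122% of gene counts (95% Wilson interval 0.00905 to 0.0165), and 27 counts in replicate 2, or 0.0224% (0.0154 to 0.0327). The intervals overlap. Gas5 and Snhg5 carried 30 of the 42 counts and 25 of the 27. The other 5 hosts had at most 5 counts each over both libraries, so at this depth their levels are known only within wide limits. Intervals here cover counting error only, since reads copied by PCR and lacking molecular identifiers do not each stand for a molecule.

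Gas5 (ENSMUSG00000053332), a host of many C/D-box snoRNAs whose spliced RNA accumulates in growth-arrested cells, had 17 counts in each library. Scaled by library size this was 46.1 and 151.8 CPM, and per length of its 2556-nucleotide representative isoform 18.02 and 59.4 CPM per kb. The mean was 98.9 CPM ± 74.8 (SD, n = 2). The equal raw counts therefore stand for a higher level in replicate 2, the shallower library. In whole tissue, fewer cells with a transcript and less of it per cell cannot be told apart.

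Snhg5 (ENSMUSG00000097195), the host of the C/D-box snoRNAs Snord50a and Snord50b, had 13 counts in replicate 1 and 8 in replicate 2. These were 35.2 and 71.4 CPM, or 39.9 and 80.9 CPM per kb of its 883-nucleotide isoform, with a mean of 53.3 CPM ± 25.6 (SD, n = 2). Per kb the mean of Snhg5 was 60.4 ± 29.0 and that of Gas5 38.7 ± 29.3 (SD, n = 2). Snhg5 stood above Gas5 in each library, but the ranges of the replicates overlap, as do the 95% Poisson intervals of the genes within each library.

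The remaining hosts were near the limit of detection. Snhg12 (ENSMUSG00000086290), which carries H/ACA-box snoRNAs and Snord99, had 3 and 1 counts, or 9.13 and 10.03 CPM per kb. Snhg3 (ENSMUSG00000085241), the host of the U17 RNAs Snora73a and Snora73b that act in cleavage of the ribosomal RNA precursor, had 1 count in each library, or 4.66 and 15.4 CPM per kb. Both were seen in both replicates.

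Counts in replicate 1 alone were found for the other 3. Snhg6 (ENSMUSG00000098234), the host of Snord87, had 2 and 0 counts, and its first value was 13.5 CPM per kb. Snhg8 (ENSMUSG00000104960), the host of Snora24, had 1 and 0 counts, or 3.49 CPM per kb in replicate 1. Snhg11 (ENSMUSG00000044349), a host with high expression in neurons, had 5 and 0 counts, or 2.31 CPM per kb of its 5864-nucleotide isoform. A count of 0 in replicate 2 allows up to 26.8 CPM (3 counts), which is above the level of each of these genes in replicate 1, so no difference between the libraries was detectable for them.

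**Figure D1:**
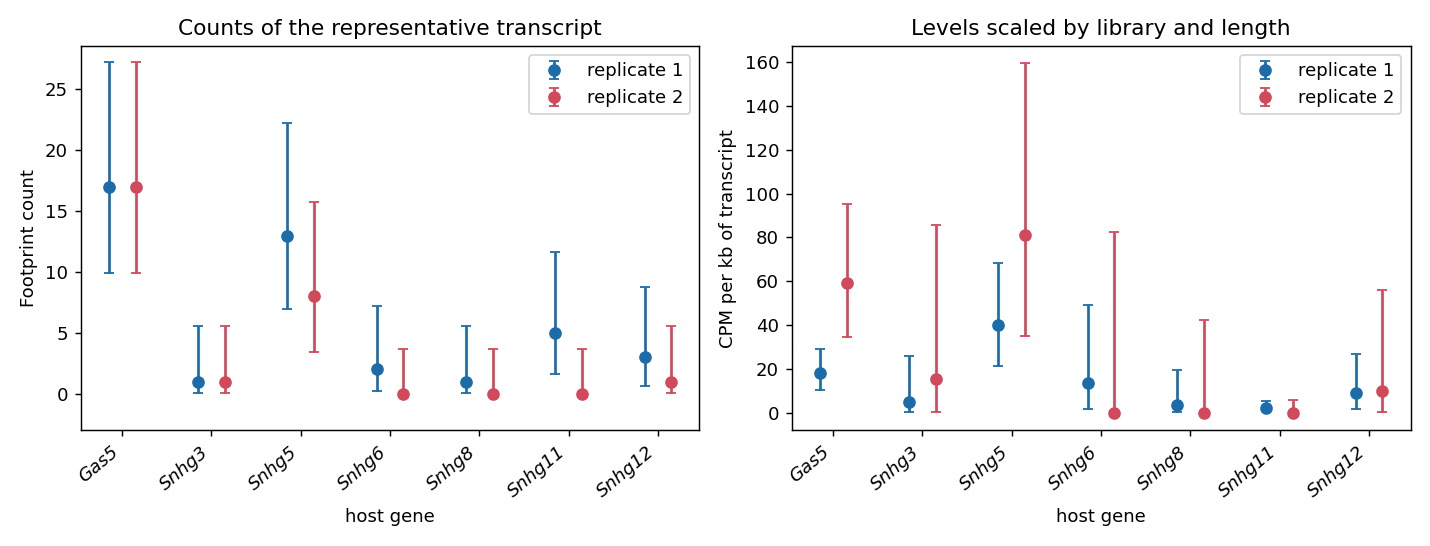
Left, footprint counts of the representative isoform of each host gene (vertical axis) in replicate 1 (blue) and replicate 2 (red). Right, the same as CPM per kb of isoform length. Points are single libraries and bars are 95% Poisson intervals of the count. Gas5 and Snhg5 stand above the other hosts in count; the intervals of the other 5 hosts reach to 0 or close to it.

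By mean CPM per kb the order was Snhg5, Gas5, Snhg3, Snhg12, Snhg6, Snhg8 and Snhg11, with means of 60.4, 38.7, 10.02, 9.58, 6.77, 1.75 and 1.16. For Snhg12 the isoforms Snhg12-005 (890 nucleotides) and Snhg12-007 (509 nucleotides) tied in counts, and the longer was taken. Their summed counts per kb were 4.49 and 7.86, so the order of Snhg3 and Snhg12 depends on that choice. The ranges of the 2 replicates overlap between Snhg5 and Gas5, between Snhg3 and Snhg12, between Snhg12 and Snhg6, between Snhg6 and Snhg8 and between Snhg8 and Snhg11. Gas5 lay above Snhg3 without overlap of the replicates, while the Poisson intervals of these genes overlap. The median over the 14480 protein-coding genes with a count was 6.81 CPM per kb and that over 1390 long non-coding genes 2.03. Snhg5 was higher than 92.0% of those coding genes and Gas5 than 87.6%, whereas Snhg11 was higher than 11.7%. Lengths are whole isoforms here, and footprints of messenger RNAs are known to fall mostly on the coding part, so this scale places hosts and messages side by side without measuring how heavily either is translated.

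The counts of Gas5 and Snhg5 fell mostly on isoforms that keep an intron. In each the representative was annotated as a retained-intron isoform, a transcript that keeps an intron, and the fully spliced isoforms annotated as lincRNA had few counts. How a fragment that matches several isoforms was counted is not given in the sources used here. Among 874 pairs of coding isoforms with equal coding length the lower count was a median of 0.902 times the higher, which counting on every isoform and an even split would both give. Isoform counts are therefore set side by side, and none is subtracted from another.

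Gas5 has 20 retained-intron and 5 lincRNA isoforms in the table. The highest lincRNA count was 1 in each library, against 17 and 17 for the retained-intron isoform Gas5-003. The 5 lincRNA isoforms summed to 5 counts in replicate 1 and 2 in replicate 2. The sum of all 5 thus stayed below the count of Gas5-003 alone in both libraries.

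Per length the contrast in Gas5 was smaller, because Gas5-003 is 3.84 times as long as Gas5-008 (665 nucleotides), a lincRNA isoform with the highest count. Gas5-007 (557 nucleotides) had the same counts, and the tie was settled by taking the longer Gas5-008 for the ratio. The ratio of counts per kb was 4.42 in each library (95% exact interval 0.693 to 185), and over both libraries together, with 34 against 2 counts, 4.42 (1.13 to 38.0). These intervals treat isoform counts as independent, which shared fragments may make untrue. Nor do they allow for the choice of both isoforms by their counts in these libraries. Of the 20 retained-intron isoforms 4 had no count in either library, and the next highest, Gas5-006 (1614 nucleotides), had 6 and 2. Summed over the libraries, the densest lincRNA isoform, Gas5-007, had 3.59 counts per kb; Gas5-003 had 13.3, and 7 shorter retained-intron isoforms, with 2 to 8 counts each, also exceeded it. Averaged over all isoforms of each kind the ratio was 1.26.

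Snhg5 has 3 retained-intron and 5 lincRNA isoforms. The retained-intron isoform Snhg5-007 had 13 and 8 counts and Snhg5-003 (614 nucleotides) 9 and 7, while the third, Snhg5-008 (910 nucleotides), had 2 and 0. Of the lincRNA isoforms, Snhg5-001 (1004 nucleotides) had 3 and 0, Snhg5-005 (994 nucleotides) 2 and 0, and the other 3 none. Here length does not favour the retained-intron isoform, since Snhg5-007 is 0.879 times as long as Snhg5-001. Counts per kb of Snhg5-007 were 4.93 times those of Snhg5-001 in replicate 1 (95% exact interval 1.35 to 27.0). In replicate 2 the ratio was 3.03 with the spliced isoform set to the 3 counts that a count of 0 allows. That value takes the 8 counts of Snhg5-007 as exact, so it is not a lower limit. Both isoforms were picked by their counts in these libraries, which the interval does not allow for. On the longest isoform of each kind the ratio over both libraries was 0.736, with 2 counts on Snhg5-008. The lincRNA isoforms together had 5 and 0 counts.

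**Figure D2:**
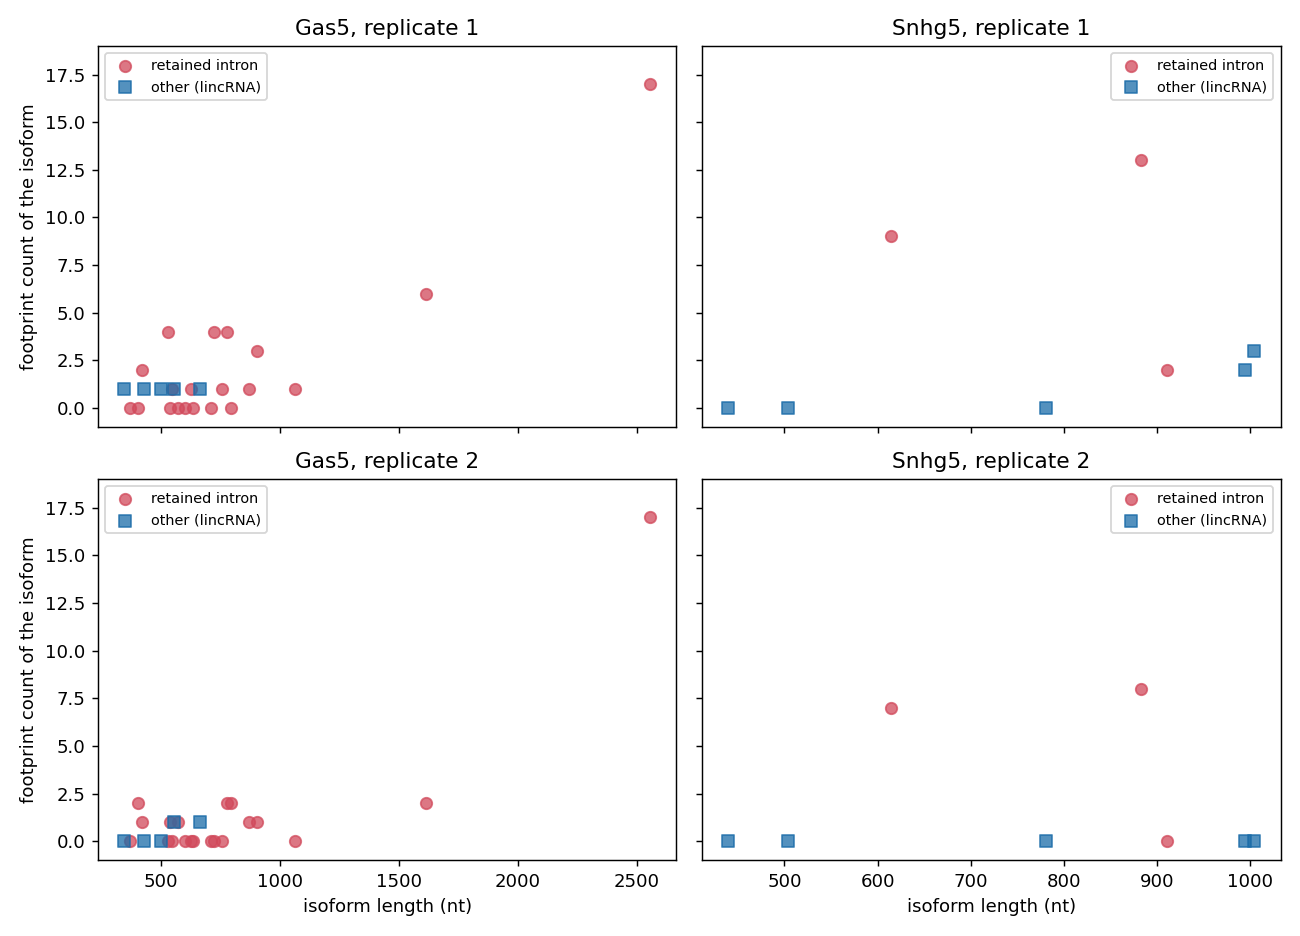
Footprint count of each annotated isoform (vertical axis) against its length in nucleotides (horizontal axis) for Gas5 (left) and Snhg5 (right) in replicate 1 (top) and replicate 2 (bottom); red circles are retained-intron isoforms and blue squares the lincRNA isoforms. Gas5-003 reaches 17 counts in each library while no Gas5 lincRNA isoform exceeds 1; Snhg5-007 and Snhg5-003 stand above every lincRNA isoform of Snhg5.

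The other hosts had too few counts, or no retained-intron isoform, to show or lack the same contrast. Snhg11 has 2 retained-intron isoforms, of which the higher had 2 and 0 counts against 5 and 0 for Snhg11-001, a density ratio of 0.743 (95% exact interval 0.0708 to 4.54). Snhg11-001 is annotated as protein coding with a reading frame of 264 nucleotides, and Snhg11-002, a nonsense-mediated decay isoform with a frame of 204 nucleotides, had 3 and 0 counts. The only retained-intron isoform of Snhg8 and its 2 lincRNA isoforms had 1 count each in replicate 1 and none in replicate 2, and a tie alone made the former its representative. Snhg3, Snhg6 and Snhg12 have no retained-intron isoform in the table; their counts of 1 and 1, 2 and 0, and 3 and 1 fell on isoforms annotated as processed transcript or lincRNA.

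Among all genes past the count filter, a mean of at least 10 counts, 1850 had both kinds of isoform. A retained-intron isoform had a higher summed count than any other isoform in 66 of these, or 3.57%. Gas5 and Snhg5 were among them, but both passed the filter through that isoform alone, so their place there follows from the filter. The median density ratio was 0.730 (quartiles 0.440 and 1.11). Counting the hosts themselves, 16 genes reached the ratio of Gas5 and 5 that of Snhg5. Most of the comparison was with protein-coding genes, 1844 of the 1850. Among the 5 long non-coding genes 3 reached the ratio of Gas5 and 2 that of Snhg5. As the filter let Gas5 and Snhg5 in through the retained-intron isoform alone, their high ratios also depend on the filter.

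**Figure D3:**
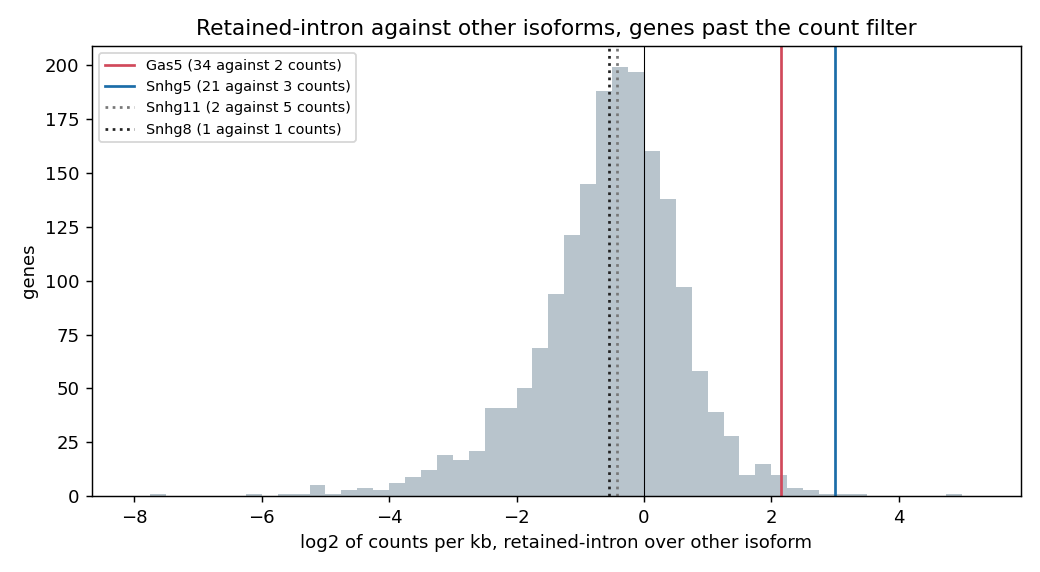
Histogram of the log2 ratio of counts per kb, highest-count retained-intron isoform over highest-count other isoform, for the 1815 genes past the count filter with a count on both (vertical axis, number of genes). Solid lines mark Gas5 and Snhg5, right of most genes. Both passed the filter through their retained-intron isoform alone, so this place depends on the filter. Dotted lines mark Snhg8 and Snhg11, which did not pass the filter and rest on at most 5 counts an isoform.

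The long non-coding gene 1110038B12Rik is not in the list and was singled out after its values were seen. Its RefSeq span holds 2 snoRNA genes, among them Snord52. It had 20 and 6 counts on a retained-intron isoform of 934 nucleotides, against at most 2 and 0 on its 3 lincRNA isoforms. Of the 5 long non-coding genes past the filter with both kinds of isoform, 3, or 60%, had the retained-intron isoform highest, and each of these 3 spans snoRNA genes. These 3, Gas5, Snhg5 and 1110038B12Rik, passed the filter through that isoform alone, so their place in this count and the next follows from the filter. Over all classes, the retained-intron isoform was highest in 11 of 91 genes that span a snoRNA gene (12.1%) and in 53 of 1694 that span none (3.13%), a description without a test in which strand was not considered and the 11 include these 3. The median density ratio was 0.716 (quartiles 0.456 and 1.10) in the genes that span a snoRNA gene and 0.730 (0.435 and 1.10) in those that span none, so counts per length did not separate these groups.

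The snoRNAs carried by the hosts are annotated as genes of their own, and a fragment of one can also be a fragment of a host isoform that keeps its intron. Snord50a had 11 and 5 counts and Snord50b 10 and 6, close to the 13 and 8 of Snhg5-007 and the 9 and 7 of Snhg5-003. For Gas5, Snord47 had 0 and 1 counts, Snord80 had 3 and 0, and Snord78 had none. These pairs rest on the names of the snoRNAs, since the spans of Gas5 and Snhg5 hold 8 and 2 snoRNA genes in RefSeq, of which 1 and 0 have a symbol found in the table. How many fragments are shared between a snoRNA and its host was not tested, as the table gives no positions.

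In the hosts with few counts, the matched snoRNAs also had few raw counts. These counts are not scaled by length, and the snoRNAs are shorter than the host isoforms. Snord87, for example, has 87 nucleotides against 400 for Snhg6-002. Equal raw counts therefore stand for a higher density on the snoRNA. Snord87 had 4 and 5 counts against 2 and 0 for its host Snhg6. Snora73b had 5 and 1 and Snora73a 1 and 1, against 1 and 1 for Snhg3. Within Snhg12, Snora16a had 3 and 2 counts, Snora61 3 and 1, Snora44 1 and 0 and Snord99 0 and 1, against 3 and 1 for the host. Snora24 of Snhg8 had 0 in both libraries. Snord22, whose host Snhg1 is not analysed here, had 9 and 1. In all, 11 of the 28 snoRNA genes within the RefSeq spans of the 8 hosts were matched by symbol, with 27 counts in replicate 1 and 13 in replicate 2, before Snord50a, Snord50b, Snord78 and Snord80.

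Between the libraries, Gas5 was higher in replicate 2 with a log2 ratio of 1.70 on the log2(CPM + 1) scale (counting SE 0.488; exact binomial test on the reads, Benjamini-Hochberg adjusted p = 0.0208 over 5436 genes). For Snhg5 the log2 ratio was 1.00 (counting SE 0.636, exact binomial p after adjustment = 0.746), a difference within counting error. The call made 1 of the 2 members past the filter, against 3.99% of all tested genes called higher in replicate 2 and 0.147% called lower. Among the 53 long non-coding genes tested 24.5% were called and among the 4392 protein-coding genes 0.956%. The median log2 ratio of the 2 members was 1.35, against 0.0041 over all tested genes, 0.23 over long non-coding genes and 1.91 over short non-coding RNAs. The test compares the reads of 2 libraries and not conditions. The call on Gas5 was lost with library totals (adjusted p = 0.0695), without the count filter (0.144) and with a preset biological coefficient of variation of 0.2 (0.361, edgeR exact test).

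**Figure D4:**
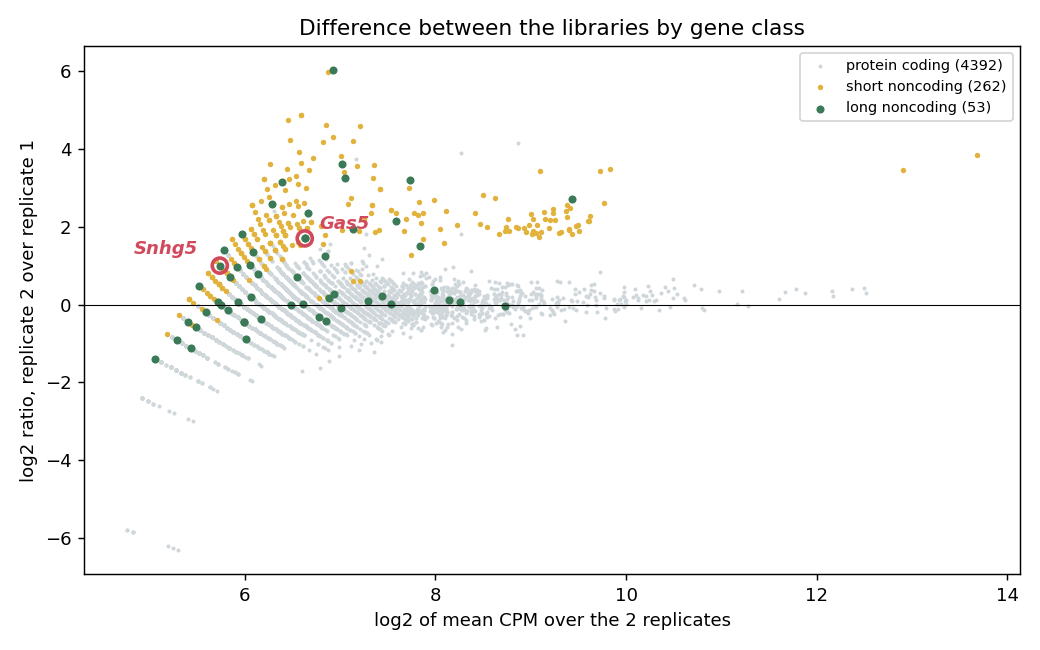
Log2 ratio of replicate 2 over replicate 1 (vertical axis) against log2 of the mean CPM (horizontal axis) for tested genes: grey, protein coding; yellow, short non-coding; green, long non-coding. Red rings mark Gas5 at 1.70 and Snhg5 at 1.00, both above the bulk of coding genes near 0. Gas5 lies within the quartiles of the short non-coding RNAs (1.33 and 2.37, median 1.91) and Snhg5 below them.

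Without retained-intron isoforms, the highest-count Gas5 isoform had 1 count in each library and a log2 ratio of 1.42, below the filter and not tested. The lincRNA isoforms summed to 5 and 2 counts for Gas5 and to 5 and 0 for Snhg5. Short non-coding RNAs, the class that the hosted snoRNAs belong to, were called in 63% of cases. Of the 262 tested, 257 had a log2 ratio above 0, as did Gas5. The snoRNAs set beside Gas5 itself had too few counts to show a direction. Snord80 had 3 and 0, Snord47 had 0 and 1 and Snord78 had none. The part of short non-coding RNAs in the Gas5 ratio was not tested. Of the listed neuron markers 5 of 5 had a log2 ratio above 0 (median 0.29), and Map1b (0.30, exact binomial p after adjustment = 0.00536) and Tubb3 (0.33, 0.00365), which encode neuronal microtubule proteins, were called higher in replicate 2; neither was called with the preset variation. Ratios above 0 were not particular to neurons. They were found in 3 of 4 astrocyte and radial glia genes (median 0.27), with 0 called. The same held for 2 of 3 oligodendrocyte lineage genes (median 0.11) and 3 of 3 blood genes (median 0.13), also with 0 called. The neuron list held 0.866% and 0.920% of gene counts, and the part of any cell type in the Gas5 ratio was not tested.

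Other non-coding hosts gave few counts too. Of 13 listed, 8 were found and 2 passed the filter, Snhg14 and Snhg20, and both were called higher in replicate 2; with the preset variation 1 of the 2 was. Snhg20 had 9 and 27 counts on a lincRNA isoform (ratio of 3.25 on the log2 scale, counting SE 0.538, exact binomial p after adjustment = 5.10e-09), and its RefSeq span holds no snoRNA gene. Snhg14, the antisense transcript that carries the imprinted snoRNA clusters of the Prader-Willi region, had 17 and 17 counts, the same pair as Gas5. Of those left, Snhg17 was the highest, with 3 and 0 counts.

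By the distance between log2(CPM + 1) values over the 2 replicates, the long non-coding genes most like Gas5 among 51 were Snhg14 (distance 0), Gm37158 (0.515; 12 and 19 counts) and Meg3 (0.553; 25 and 18 counts). A pair of libraries of 1 group gives little pattern to match. Among 14 of 16 other listed long non-coding RNAs that were found, 4 passed the filter and 1 was called, the nuclear RNA Malat1, with 44 and 38 counts; its ratio on the log2 scale was 1.50 (counting SE 0.318, exact binomial p after adjustment = 0.000205), a call lost with the preset variation. Meg3 had a ratio of 1.23 (adjusted p = 0.131) and Peg13, with 59 and 21 counts, one of 0.23 (adjusted p = 1).

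Genes that encode proteins and carry snoRNAs in their introns took more footprints, 2077 and 627 over the 19 found. Of 20 listed, 18 were tested, 0 were called by the exact binomial test (0 also at an unadjusted p under 0.05 and 0 by the edgeR test with preset variation), and their median log2 ratio was -0.13, with 7 above 0. The most abundant were the chaperone Hspa8 at 1298 CPM ± 92.5, the elongation factor Eef2 at 1207 ± 74.0 and the nucleolar protein Ncl at 513 ± 70.1 (each SD, n = 2). No test set Gas5 against them directly. The core proteins that bind the finished snoRNAs had 6 of 9 members tested and 0 called, also unadjusted (median -0.69); the highest were the methyltransferase Fbl with 36 and 6 counts, Nop56 with 32 and 5, and Nop10 with 24 and 5. Of 15 factors of nonsense-mediated decay and the exon junction complex, 6 were tested and 0 called, also unadjusted (median 0.11), and the highest, Eif4a3, Upf1 and Rbm8a, had 46 and 10, 28 and 9, and 24 and 5 counts.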

How the data were processed

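Fragments from ribosome pull-downs of mouse brain were measured in 2 replicates of 1 group. The authors deposited raw, whole-number counts per transcript, with isoform lengths and biotypes. The submitters' processing notes name Trimmomatic 0.36, Bowtie2 2.2.6, SAMtools and build GRCm38.p4; how counting was done is not given in the sources used here. Members and lists were chosen with earlier results of these data known. A gene was represented by its highest-count isoform, and CPM used TMM factors (1.07 and 0.931; edgeR 4.0.16) over genes averaging 10 counts or more. Libraries were compared by a 2-sided exact binomial test with Benjamini-Hochberg adjustment at 0.05 over all 5436 such genes (scipy 1.17.1). The code was tried on simulated libraries with Poisson counting error alone. That trial cannot show how the test fares with further variation between replicates. Ratios are on log2(CPM + 1). Protein coding means any coding isoform; long non-coding means a long RNA biotype otherwise. Hosted snoRNAs were placed by RefSeq gene spans (GRCm38.p6) or by name. Named were all members, the 3 highest-count and any called genes of each other gene list (marker lists serve as a tissue check), and the 3 long non-coding genes nearest Gas5. Alternatives covered scaling (DESeq2 1.42.0 size factors among them), filter, pseudocount, isoform choice and a preset variation.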

Additional observations from a re-analysis of the deposited data

How the results depend on the processing

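No paired analysis was possible because the series holds a single group. The number of host genes called, 1, became 0 with library totals, 0 without the count filter and 0 with the variation preset at 0.2, and stayed 1 with TMM from coding genes, DESeq2 size factors, a pseudocount of 0.1 and summed isoforms. The log2 ratio of Gas5, 1.70, no longer passed the threshold at 1.50 with library totals, 1.53 without the filter, 1.70 with the preset variation (a wider test by construction) and 1.42 without retained-intron isoforms, where no host reached the filter. That choice also reversed Snhg5, from 1.00 to -3.19, resting on 3 and 0 counts. No host reached a mean of 50 counts. Library totals lowered the median ratio of all tested genes from 0.0041 to -0.20. Over all genes the 225 calls became 75 with a mean of 50 counts, 131 with the preset variation and 605 (383 higher, 222 lower, against 217 and 8) with isoforms summed, which may count a fragment more than once.

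The density ratio of retained-intron to spliced isoforms in Snhg5, 7.96 over both libraries, became 0.736 on the longest isoform of each kind, which is Snhg5-008 with 2 counts, and 17.3 as a mean over isoforms. Leaving out a replicate gave 4.42 for Gas5 either way and 4.93 for Snhg5 without replicate 2; without replicate 1 its spliced isoform had no count. Levels moved by more than 1 SD for 2 of 7 hosts without retained-intron isoforms, Gas5 to 5.84 CPM and Snhg5 to 4.08 CPM, for 1 with isoforms summed and for 0 with library totals.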
